A study of Sus scrofa with 6 samples.

Results

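The proteasome genes of newborn piglet liver were examined across 6 RNA-seq libraries. Members were all rows whose Ensembl gene maps to a symbol starting with PSMA, PSMB, PSMC, PSMD, PSME, PSMF or PSMG and that reached 1 FPKM (a fragment count scaled for gene length and library size) in at least 3 libraries. Of 26733 features, 29 carried such a symbol and 24 passed. Liver was taken from newborn Landrace x Yorkshire piglets whose mothers received tryptophan on 1 of 2 daily schedules. In the 2×Trp group (3 libraries) sows ate feed with 0.26% tryptophan in the morning and in the afternoon. In the High-Low group (3 libraries) the morning feed held 0.39% and the afternoon feed 0.13%. The labels do not tie libraries to single piglets or litters. The spread behind each p-value is that between these 6 samples, and it may be technical. By its title, the study sought differentially expressed liver genes in order to examine adverse effects of tryptophan in the diet.

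The proteasome is the large protease that degrades proteins tagged with ubiquitin, and it recycles amino acids in every cell. Its core particle is a barrel of PSMA (alpha) and PSMB (beta) subunits, with the cutting sites on a few beta subunits. A regulatory particle of PSMC ATPases and PSMD subunits sits on the ends of the barrel, recognises ubiquitin, unfolds the substrate and feeds it in. In immune cells and under interferon, PSMB8, PSMB9 and PSMB10 take the place of the constitutive cutting subunits, and PSME1 and PSME2 form the PA28 cap. This immunoproteasome supplies peptides for display on class I molecules, through the TAP1 and TAP2 transporter. Liver parenchyma mainly carries the constitutive form.

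Of 48 symbols for subunits, chaperones and activators, 28 were matched to a row and 20 were not, which are not analysed here. Matched and tested were 5 core genes (PSMA1, PSMA3, PSMA5, PSMB1 and PSMB7) and 13 regulatory genes (PSMC1, PSMC2, PSMC3, PSMC5, PSMC6, PSMD1, PSMD3, PSMD4, PSMD6, PSMD11, PSMD12, PSMD13 and PSMD14). Of the immunoproteasome genes, PSME1 and PSME2 were tested. The remaining 4 tested members were the activators PSME3 and PSME4, the base chaperone PSMD5 and PSMG3, a chaperone of core assembly. The 5 rows that did not pass were PSMB8, PSMB9, PSMA8 (the testis form of an alpha subunit), PSMB11 (the thymus form of a beta subunit) and PSMC3IP. PSMC3IP shares the prefix but acts in meiotic recombination and is no proteasome part. It lay just under the limit, with 1 FPKM or more only in 2×Trp 2 (1.12) and High-Low 2 (1.22). PSME4, just inside the limit, ran from 1.06 to 3.18 FPKM.

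FPKM totals ran from 956426 to 1230288 per library, and read depth is unknown because these values hold no counts. Hepatocyte markers summed to 43900 to 59330 FPKM in 2×Trp and 42380 to 65290 in High-Low, with 8 of 10 markers matched. Among them AHSG was listed at 0 in all 6 libraries. The 24 members together held 0.0752% (High-Low 1) to 0.0915% (2×Trp 3) of the FPKM total. The mitochondrial sequence held 3.48% to 5.20% of the total in 2×Trp and 5.83% to 10.02% in High-Low.

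Levels of the members spanned from 1.87 ± 0.74 FPKM for PSME4 to 141 ± 16.1 for PSME1 (mean ± SD, n = 6 libraries). Within the core, whose subunits enter the barrel in equal numbers, the order was PSMB7, PSMB1, PSMA5, PSMA1 and PSMA3. PSMB7, which carries a trypsin-like cutting site, stood at 138 ± 20.6 FPKM and PSMB1, a structural beta subunit, at 115 ± 9.76. The alpha ring genes PSMA5, PSMA1 and PSMA3 had 32.3 ± 2.88, 14.3 ± 4.73 and 4.27 ± 1.46 FPKM. The highest core gene was therefore listed 32.3-fold above the lowest, and the regulatory genes spanned 26.6-fold, from PSMD12 at 2.69 ± 0.74 to PSMC5 at 71.5 ± 11.1. Between neighbours in the order of all 24 members, the ranges over the 6 libraries were separate at 2 steps. These were from PSMB1 (lowest 99.9) to PSMC5 (highest 85.2) and from PSMC1 (lowest 46.8) to PSMC3 (highest 44.8).

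The levels carry a limit, because the deposited gene lengths are short for many genes and no source used here gives the length that went into the values. The 14 members with a listed length under 400 bases had a median level of 41.9 FPKM, and the 10 with 400 bases or more had 6.84. Both sets spread widely. PSMD5 (258 bases) and PSMD1 (268 bases) had 2.27 and 5.93 FPKM, while PSMC5 (1379 bases) and PSMC3 (2258 bases) had 71.5 and 39.8. The part of the listed length in these levels was not tested.

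**Figure D1:**
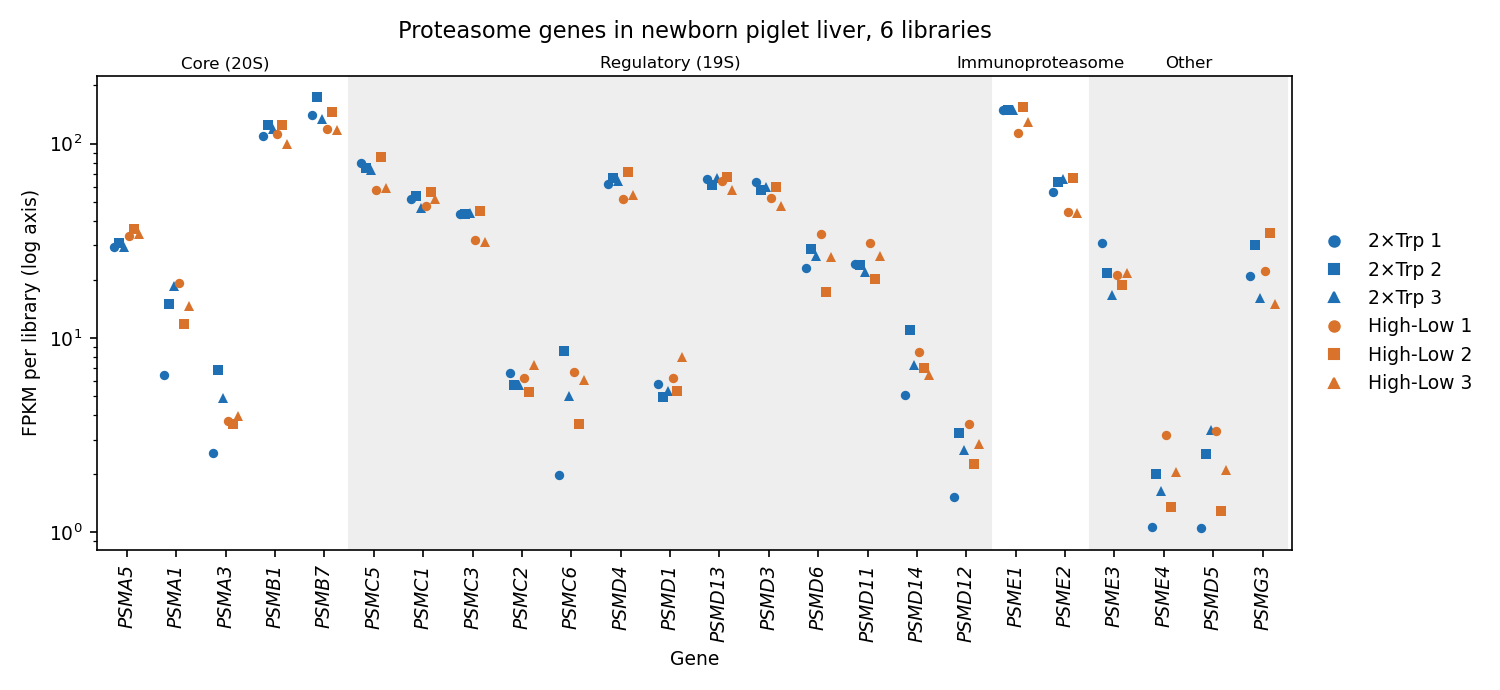
FPKM of the 24 proteasome members in each of the 6 libraries (log axis), grouped by role; blue points are 2×Trp and orange points High-Low, with a marker shape per replicate number. PSME1, PSMB7 and PSMB1 lie at the top, at 99.9 FPKM or more in every library, and PSMA1, PSMA3, PSMC6, PSMD14, PSMD12, PSMD5 and PSME4 have their lowest point in 2×Trp 1.

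No proteasome gene passed the test between the maternal diets. In limma with Benjamini-Hochberg adjustment over all 10901 genes tested, 0 of 24 members were called, against 0.00917% of all genes (1 gene). Before adjustment 0 members had p under 0.05, where all genes gave 3.16% (345 of 10901; 1.25% higher and 1.92% lower). Log2 fold changes (High-Low minus 2×Trp, on the log2(FPKM + 1) scale) ran from -0.29 for PSMC3 to 0.30 for PSME4, 10 positive and 14 negative, with a median of -0.035. The median over all genes was -0.0038. The median size of the log2 fold change was 0.18 for the members and 0.17 for all genes. A log2 fold change past 0.5 in size was found in 10.1% of all genes and in 0 members, and one past 0.3 in 26.6% of all genes and in 0 members. The precision allows limits to be set on each gene. The 95% interval lay within 1 unit on both sides for 22 of 24 members, and within 0.5 units for 3. These units are on the log2(FPKM + 1) scale, on which a given step is a larger fold in FPKM for low genes. The exceptions at 1 unit were PSMA1 (-0.63 to 1.16) and PSMC6 (-0.84 to 1.21).

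**Figure D2:**
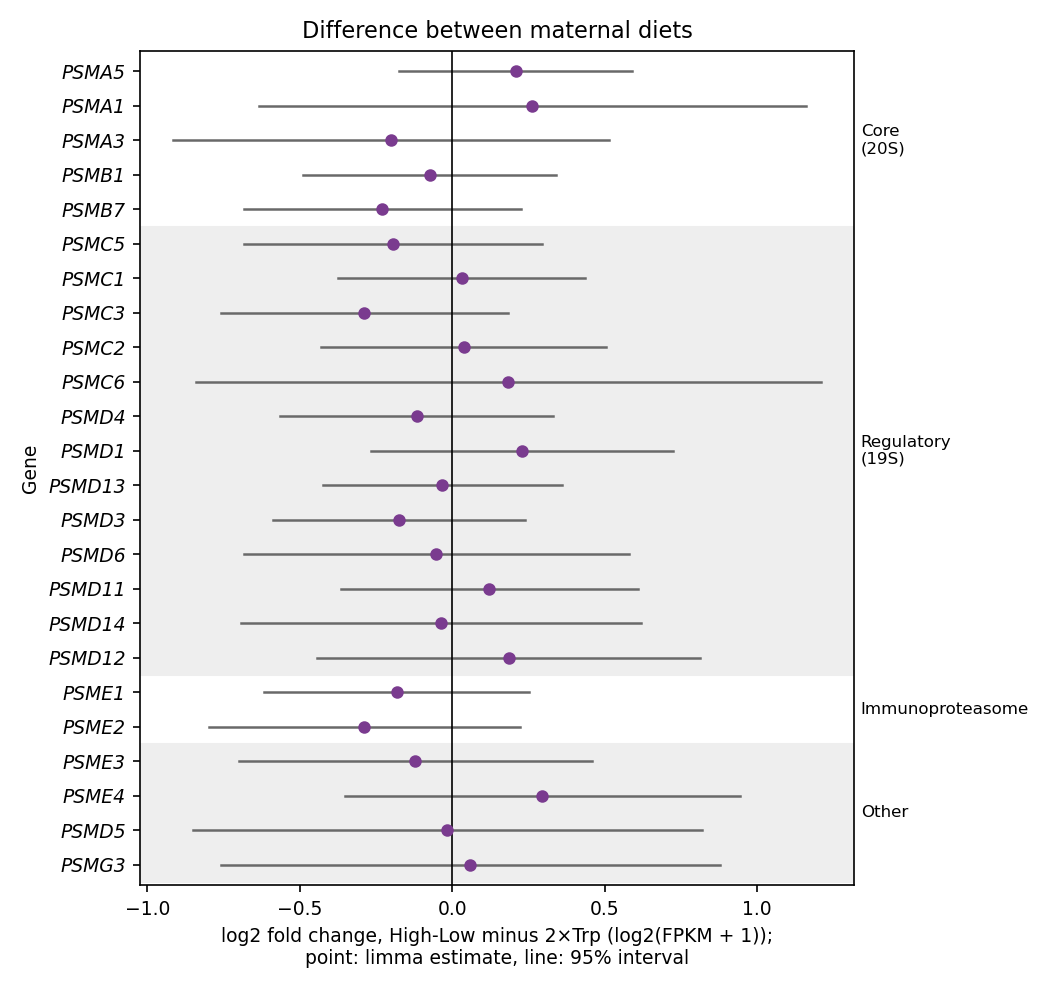
Log2 fold change between High-Low and 2×Trp for each of the 24 members (points, limma) with its 95% interval (lines), ordered by role. Every interval includes 0, and the points lie between -0.29 and 0.30.

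For the 5 core genes, 2 with positive and 3 with negative log2 fold changes, the median was -0.074. PSMA5, an alpha ring subunit, was the only member whose groups did not overlap. It had 29.4, 30.9 and 29.3 FPKM in 2×Trp and 33.4, 36.5 and 34.2 in High-Low, so each High-Low library lay above each 2×Trp library. Its log2 fold change was 0.21 (95% interval -0.17 to 0.59), with an unadjusted p of 0.241 and an adjusted p of 0.998 in limma. Groups without overlap were found for 7.18% of all genes tested (3.06% higher and 4.12% lower in High-Low), and for 1 of 24 members. PSMB7 pointed the other way, with 140, 173 and 134 FPKM in 2×Trp and 119, 145 and 117 in High-Low. High-Low 2 lay within the 2×Trp range of PSMB7, and the log2 fold change was -0.23 (95% interval -0.68 to 0.23). PSMB1 was the steadier beta gene at 110, 125 and 118 FPKM against 112, 125 and 99.9.

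PSMA1 and PSMA3 of the alpha ring varied more between the 2×Trp libraries than between the group means, while PSMA3 was close to even in High-Low. PSMA1 had 6.43, 15.0 and 18.6 FPKM in 2×Trp and 19.3, 11.8 and 14.6 in High-Low. PSMA3 had 2.57, 6.84 and 4.90 against 3.73, 3.63 and 3.96. For both genes 2×Trp 1 was the lowest of the 6 libraries. Without it the log2 fold change of PSMA1 turned from 0.26 to -0.15, and that of PSMA3 went from -0.20 to -0.51.

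The 13 regulatory genes divided into 6 with positive and 7 with negative log2 fold changes, around a median of -0.033. Of the ATPases that unfold substrates, PSMC3 had the largest size of difference. Its 2×Trp libraries were close together at 43.3, 43.4 and 44.0 FPKM, while High-Low had 31.9, 44.8 and 31.2, so that High-Low 1 and High-Low 3 lay below and High-Low 2 above all 2×Trp libraries. The log2 fold change was -0.29 (95% interval -0.76 to 0.18). PSMC5 had the same layout, with 79.4, 74.5 and 73.5 FPKM against 57.4, 85.2 and 59.0, and a log2 fold change of -0.19. PSMC1 (46.8 to 54.1 FPKM in 2×Trp, 47.7 to 56.7 in High-Low) and PSMC2 (5.74 to 6.59 and 5.26 to 7.22) had log2 fold changes of 0.03 and 0.04. PSMC6 spread widest of the ATPases, from 1.98 FPKM in 2×Trp 1 to 8.57 in 2×Trp 2, with 6.69, 3.62 and 6.11 in High-Low.

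Among the non-ATPase subunits of the base, PSMD4, a ubiquitin receptor, had 61.9, 66.5 and 63.9 FPKM in 2×Trp and 52.2, 71.9 and 54.8 in High-Low. PSMD1, a scaffold subunit, had 5.77, 4.97 and 5.32 against 6.24, 5.33 and 7.98, and its log2 fold change was 0.23 (95% interval -0.27 to 0.73). PSMD4 thus followed the layout of PSMC3, whereas PSMD1 was highest in High-Low 3. The lid gene PSMD14 encodes the enzyme that removes ubiquitin chains from substrates. It had 5.12, 11.0 and 7.30 FPKM against 8.42, 7.00 and 6.47, with overlapping groups and a log2 fold change of -0.04. PSMD13 varied least of all members, from 58.0 to 67.1 FPKM, a coefficient of variation of 5.56%. The other lid genes PSMD3, PSMD6, PSMD11 and PSMD12 had log2 fold changes from -0.17 (PSMD3) to 0.19 (PSMD12). PSMD6 was highest in High-Low 1 (34.4 FPKM) and lowest in High-Low 2 (17.3), and PSMD11 likewise (30.7 and 20.04).

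The PA28 cap genes were the tested part of the immunoproteasome, and both had negative log2 fold changes without passing the test. PSME1 was close to constant in 2×Trp, at 149, 150 and 150 FPKM, and had 114, 155 and 130 in High-Low. PSME2 had 56.7, 63.7 and 66.1 FPKM against 44.5, 66.3 and 44.0. In both genes High-Low 1 and High-Low 3 lay below every 2×Trp library and High-Low 2 lay above every one, so the groups overlapped. The log2 fold changes were -0.18 for PSME1 (95% interval -0.62 to 0.25) and -0.29 for PSME2 (-0.80 to 0.22). Their median of -0.24 over 2 genes stands beside -0.074 for the core and -0.033 for the regulatory genes, and these differences between roles were not tested. Without High-Low 1 the median of the PA28 genes was -0.14, and without High-Low 2 it was -0.39. Both genes stayed negative under each scaling tried, PSME1 at -0.090 after quantile normalization. They lie side by side on chromosome 7 in the susScr3 assembly, PSME2 at 80425840 to 80429278 on the plus strand and PSME1 at 80433126 to 80435858 on the minus strand, with 3847 bases between them. The ratio of PSME1 to PSME2, subunits of the same ring, ran from 2.27 to 2.95 in the 6 libraries (mean ± SD of 3 libraries: 2.42 ± 0.19 for 2×Trp, 2.61 ± 0.31 for High-Low). PSMB7, PSMC3, PSMC5, PSMD3 and PSMD4 were also lowest in High-Low 1 and High-Low 3. Low values in those libraries were thus not particular to this ring. The ratio of PSME1 to PSME3, whose product forms a related nuclear cap of its own, ran from 4.86 to 8.95.

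Single High-Low libraries moved these values by more than 1.5 times. Without High-Low replicate 1 the log2 fold change was -0.076 for PSME1 and -0.094 for PSMC5, and without High-Low replicate 3 it was -0.19 for PSME2 and -0.11 for PSMC5. Without High-Low replicate 2, PSME1 had -0.30 and did not reach an unadjusted p under 0.05. In the same fit, PSME2 (log2 fold change -0.48), PSMC3 (-0.45) and PSMC5 (-0.37) reached an unadjusted p of 0.021, 0.020 and 0.0411 in limma, with adjusted p of 0.344, 0.344 and 0.374. That fit took 1412 of all 10901 genes to an unadjusted p under 0.05, against 345 with all libraries.

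The inducible cutting subunits were at or near 0 in the deposited values. PSMB8 was listed at 0 in all 6 libraries. PSMB9 had 0, 0.378 and 0.443 FPKM in 2×Trp and 0.179, 0 and 0.280 in High-Low. Their neighbours for peptide transport read the same way, with TAP1 listed at 0 in all libraries and TAP2 at 0.0633 to 0.296 FPKM. An exact 0 in such values can be a failed estimate, so it is not read as absence. PSMB10 was not matched to a row, nor were PSMB5 and PSMB6, the constitutive partners of PSMB8 and PSMB9. The planned ratios of inducible to constitutive cutting subunits could therefore not be computed.

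The 4 genes lie together on chromosome 7 in susScr3, in the order TAP2 (29257059 to 29268365, minus strand), PSMB8 (29269958 to 29273035, minus), TAP1 (29274670 to 29283296, minus) and PSMB9 (29283699 to 29288735, plus). About 155 kb further along stand 4 features without a symbol in the same order of strands, at offsets of 155.106, 155.109, 154.705 and 154.238 kb. The first of them (29412165 to 29423473) was picked by its listed length, 530 bases as for TAP2, and it spans 11309 bases against 11307. The listed lengths of the others differ from those of PSMB8, TAP1 and PSMB9, at 626 against 205, 937 against 612 and 402 against 246 bases. The second (29425067 to 29428872) spans 3806 bases against 3078 for PSMB8, the third (29429375 to 29438742) 9368 against 8627 for TAP1, and the fourth (29437937 to 29444130) 6194 against 5037 for PSMB9. These features were chosen after their values and positions were seen, and whether they are copies that share reads with the named genes was not tested, since no genome sequence was used. No source used here says how reads with several matches were assigned, so the values of PSMB8, PSMB9, TAP1 and TAP2 are uncertain.

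The 4 features had values above 0 in every library, as did TAP2 among the named genes. The second had 4.46, 3.36 and 5.56 FPKM in 2×Trp and 1.61, 2.72 and 2.73 in High-Low. Its groups did not overlap, as for 7.18% of all genes tested. Its log2 fold change was -0.70 (95% interval -1.30 to -0.11), with an unadjusted p of 0.0265 and an adjusted p of 0.998 in limma. The fourth had 1.45, 2.27 and 2.70 FPKM against 0.821, 1.55 and 0.862, with overlapping groups. Its log2 fold change was -0.59 (95% interval -1.18 to -0.0078), with an unadjusted p of 0.0477 and an adjusted p of 0.998 in limma. Of all genes tested, 3.16% had p under 0.05 before adjustment. The first and the third stayed at or under 1.33 and 1.08 FPKM and were not tested.

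**Figure D3:**
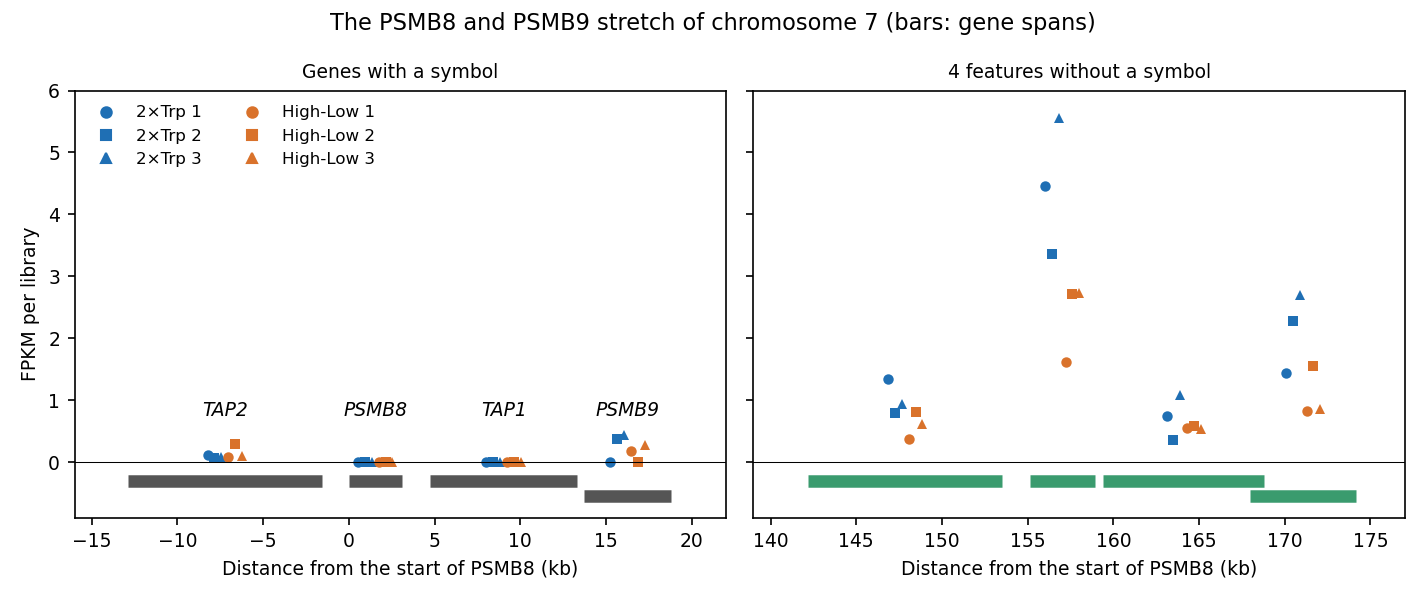
FPKM per library (points) of TAP2, PSMB8, TAP1 and PSMB9 on the left and of 4 unnamed features on the right, against distance from the start of PSMB8 in kb; bars below 0 show gene spans. The named genes lie at or under 0.443 FPKM, while the second unnamed feature ranges from 1.61 to 5.56 FPKM with all 2×Trp points above all High-Low points.

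Cells of the immune system carry the immunoproteasome, and the summed levels of their markers stand beside the values above. Each sum covers all matched markers of a list, tested or not, while directions are those of the tested ones. Matched were 14 lymphocyte, 5 dendritic and class II, 8 erythroid, 8 neutrophil, 4 bile duct and 8 stellate cell markers. Of the macrophage markers 5 of 10 were matched and tested, 4 of them negative, and their summed level was 413 to 572 FPKM in 2×Trp and 246 to 444 in High-Low. Lymphocyte markers (5 tested of 18, all negative) summed to 22.9 to 34.4 FPKM against 13.2 to 21.9, with 1 of 2 GZMA rows listed at 0 in all libraries. Markers of dendritic cells and class II presentation (3 tested of 10, all negative) summed to 42.0 to 74.1 against 19.5 to 61.1 FPKM, lowest in High-Low 1. Endothelial markers (8 tested of 12, all negative) summed to 101 to 146 against 72.9 to 101 FPKM. Erythroid markers (5 tested of 12, all negative) ranged from 6172 to 15890 and from 1817 to 7200, and neutrophil markers (7 of 11, all positive) from 39.6 to 60.5 and from 42.8 to 184. Bile duct markers (3 of 6, 2 positive and 1 negative) had sums of 18.9 to 23.4 and 16.0 to 19.1. Stellate cell markers (7 of 9, 3 positive and 4 negative) had sums of 91.5 to 144 and 97.8 to 137. Of the hepatocyte markers 7 of 10 were tested, 5 positive and 2 negative. None of these markers passed the threshold in limma. Those with p under 0.05 before adjustment were 4 of 5 tested macrophage, 1 of 5 lymphocyte, 1 of 8 endothelial and 2 of 5 erythroid markers, all lower. Of all genes tested, 1.92% were lower at that level. The part of these markers in the PSME1, PSME2 and unnamed-feature values was not tested, and in bulk liver fewer cells of a type and less RNA per cell cannot be told apart.

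The members fell into sets that varied from library to library in different ways. Split at a mean of 20 FPKM, a limit set after the values were seen, 15 members lay above it and 9 below. For the 15 abundant members the median deviation from a gene's own mean over the 6 libraries was 0.015, 0.090 and 0.054 in 2×Trp and -0.099, 0.14 and -0.16 in High-Low (log2 units, replicates 1 to 3). All 2276 genes from 20 FPKM to the level of PSME1 gave 0.064, 0.062 and 0.018, then -0.11, 0.14 and -0.14. The median of the abundant proteasome genes thus lay near that of other genes of their level in each library. Single members differed: 4 of the 15 lay above their own mean in High-Low 1, with PSMD6 at 0.42. In High-Low 2, 12 lay above it, while PSMD6 had -0.53. High-Low 1 and High-Low 3 both lay below the other 4 libraries for 7 of the 15 (46.7%: PSMB7, PSMC3, PSMC5, PSMD3, PSMD4, PSME1 and PSME2), and for 30.4% of the 2276 genes.

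The 9 less abundant members had a layout unlike that of the abundant ones. Their median deviation was -0.52, 0.17 and 0.010 in 2×Trp 1, 2×Trp 2 and 2×Trp 3 and 0.35, -0.18 and 0.099 in High-Low 1, High-Low 2 and High-Low 3. The 6137 genes of the same range of levels had medians between -0.013 and 0.032 in every library. In 2×Trp 1, 7 of the 9 (PSMA1, PSMA3, PSMC6, PSMD5, PSMD12, PSMD14 and PSME4) were at their lowest and more than 0.4 log2 units under their mean. Of the 6137 genes, 18.2% were lowest in that library and 15.5% were that far down. Some related lists had low medians there too, and others did not. Subunits without a PSM symbol had -0.31 in 2×Trp 1, 0.25 in High-Low 1 and -0.18 in High-Low 2 (4 genes), and regulators of proteasome genes had -0.28, 0.28 and -0.29 (6 genes). Hepatocyte markers had -0.60, 0.45 and 0.074 in those libraries (7 genes), and -0.33 in 2×Trp 3. In 2×Trp 1, class I presentation genes had -0.25 (6 genes) and interferon genes -0.12 (15 genes). Ubiquitin and its activating enzymes had 0.10 there (3 genes). Conjugating enzymes and ligases had -0.010 (21 genes), and shuttle and unfolding factors 0.0047 (10 genes). The part of these lists in the layout was not tested. The chaperone PSMD5 had 1.05, 2.53 and 3.35 FPKM in 2×Trp and 3.31, 1.28 and 2.10 in High-Low. PSME4, the nuclear activator PA200, had 1.06, 1.99 and 1.63 against 3.18, 1.35 and 2.04, and PSMD12 1.52, 3.26 and 2.64 against 3.60, 2.24 and 2.85. The exceptions were PSMC2 and PSMD1, which at 6.59 and 5.77 FPKM in 2×Trp 1 were not at their lowest there. The set was formed after its values were seen and carries no test, and the limit of 0.4 log2 units was not planned beforehand. The 2 layouts cut across the core and the regulatory particle.

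**Figure D4:**
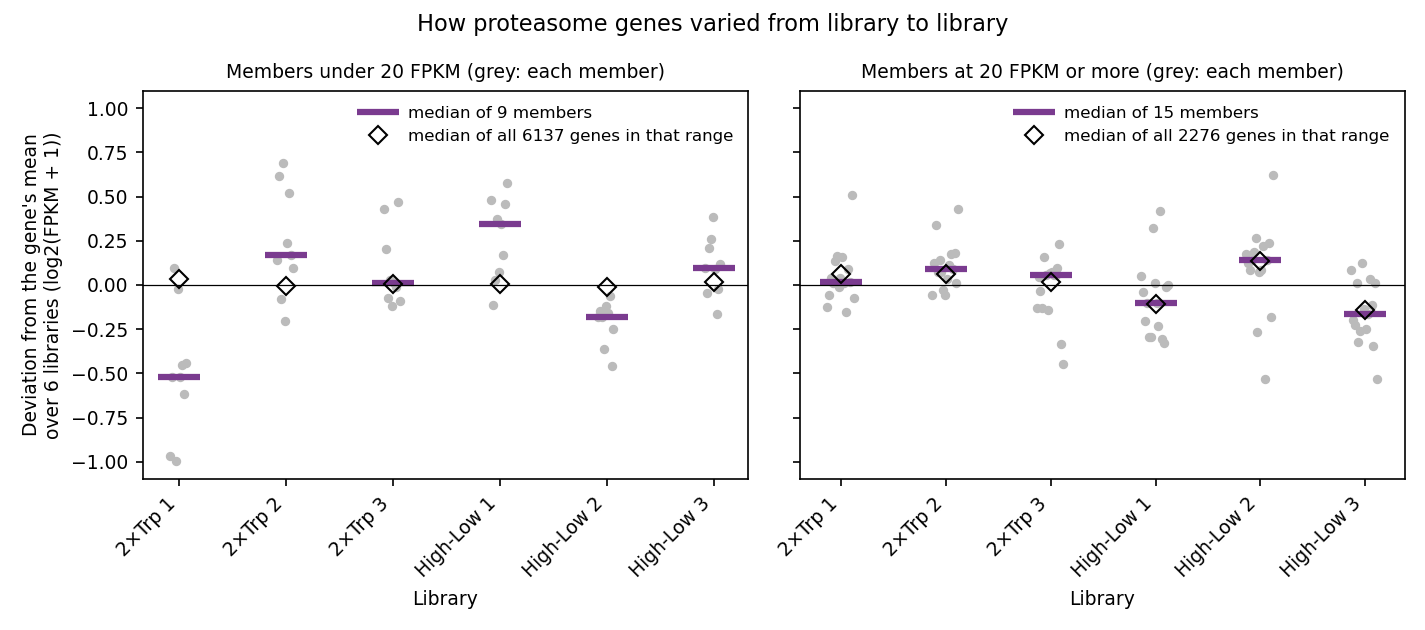
Deviation of each member from its own mean over the 6 libraries, in log2(FPKM + 1) units, for the 9 members under 20 FPKM (left) and the 15 at 20 FPKM or more (right); grey points are members, purple bars their medians and open diamonds the medians of all genes in that range of levels. On the left the members' median is -0.52 in 2×Trp 1 where all genes stand at 0.032, and on the right bars and diamonds lie close together in each library.

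PSMG3 had the highest coefficient of variation of the abundant members (33.7%), followed by PSME3 (22.2%) and PSMD6 (22.1%). PSMG3, which helps assemble the alpha ring, had 21.0, 30.2 and 16.0 FPKM in 2×Trp and 22.1, 34.6 and 15.0 in High-Low. PSME3 had 30.8, 21.5 and 16.7 against 21.2, 18.7 and 21.6. Both had overlapping groups and log2 fold changes of 0.06 and -0.12.

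The factors that drive proteasome genes did not pass the test either. NFE2L1, which raises proteasome transcription when degradation falls short, had 41.6, 39.2 and 78.8 FPKM in 2×Trp and 63.5, 35.2 and 47.4 in High-Low, with a log2 fold change of -0.09 (95% interval -0.87 to 0.69). NFE2L2, the oxidative stress factor of the same family, had 1.79, 6.33 and 8.59 FPKM against 13.2, 2.07 and 5.60. It was lowest in 2×Trp 1, next lowest in High-Low 2 and highest in High-Low 1, and its log2 fold change was 0.19 (95% interval -1.32 to 1.70). Of the regulators 6 of 12 were tested and 0 passed, 4 positive and 2 negative, with a median of 0.08. Of that list MAFF, a small partner of these factors, had 13.1 ± 5.87 against 17.6 ± 11.0 FPKM, and NFYC, a subunit of the factor that binds CCAAT boxes, 36.9 ± 1.16 against 38.4 ± 3.68 (SD, n = 3 each).

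The steps before the proteasome gave the same count of 0 called genes in limma, and also 0 at an unadjusted p under 0.05. Ubiquitin and its activating enzymes had 3 of 6 tested, 1 positive and 2 negative. The ubiquitin gene UBB had 1466, 1239 and 1370 FPKM in 2×Trp and 1210, 1258 and 1045 in High-Low, with a log2 fold change of -0.21 (95% interval -0.62 to 0.19). The activating enzyme UBA1 had 160, 165 and 171 against 121, 170 and 119 FPKM, again with High-Low 1 and High-Low 3 under all 2×Trp libraries and High-Low 2 within their range. Conjugating enzymes and ligases had 21 of 37 tested, 12 positive and 9 negative, with a median of 0.07. Of these UBE2L6, the interferon-induced enzyme for ISG15, had 3.01 ± 1.03 against 1.95 ± 1.26 FPKM, and the p53 ligase MDM2 0.778 ± 0.336 against 1.46 ± 0.834. Shuttle and unfolding factors had 10 of 13 tested, 6 positive and 4 negative, with a median of 0.0041. The shuttles UBQLN1 and UBQLN4, named for the smallest p of their list, had 11.9 ± 3.28 against 15.4 ± 3.95 and 6.61 ± 0.17 against 7.92 ± 0.91 FPKM. The groups of UBQLN4 did not overlap, as for 7.18% of all genes tested. UBQLN4 had an unadjusted p of 0.262 and an adjusted p of 0.998 in limma.

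Subunits and chaperones without a PSM symbol had 4 of 8 tested, 3 positive and 1 negative. USP14, a deubiquitinase on the regulatory particle, had 1.68, 2.42 and 2.70 FPKM in 2×Trp and 3.05, 2.44 and 3.09 in High-Low, and the base chaperone PAAF1 had 9.87, 6.74 and 6.50 against 8.83, 8.61 and 3.14. ADRM1 and POMP were not matched to a row. In class I presentation 6 of 17 genes were tested, 3 positive and 3 negative, with a median of 0.03. ERAP1, which trims peptides after the proteasome, had 1.65, 2.35 and 2.10 FPKM in 2×Trp and 3.51, 2.61 and 2.78 in High-Low. Its groups did not overlap, as for 7.18% of all genes tested, and limma gave an unadjusted p of 0.103 and an adjusted p of 0.998. The chaperone CANX had 64.3 ± 17.6 against 84.5 ± 31.9. B2M and NLRC5 of that list were not matched. Of the interferon genes 15 of 47 were tested, 8 positive and 7 negative, with a median of 0.03. IRF1, which switches on immunoproteasome genes under interferon, had 14.0, 12.5 and 24.4 FPKM in 2×Trp and 11.7, 5.95 and 18.6 in High-Low, with overlapping groups. IRF9 had 25.1 ± 7.60 against 18.3 ± 4.07 FPKM and MX1 2.71 ± 0.77 against 1.73 ± 1.07, with overlapping ranges in both.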

How the data were processed

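Each library came as its own deposited table of 26733 features (position, length, value). No header names the unit of the values; as deposited they hold fractions and sum to unlike totals, and they were taken as FPKM. Bowtie2 2.2.3, TopHat2 2.0.12, HTSeq 0.6.1 and susScr3 are named, per the submitters' processing notes; no source used here gives the annotation, the strand setting or the step that made the FPKM. Of 25322 Ensembl identifiers, 11804 had a symbol.

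The 10901 genes that reached 1 FPKM in 3 or more libraries were compared on log2(FPKM + 1), which understates changes of low genes, with limma 3.58.1 (R 4.3.3; moderated variance, mean trend, robust), Benjamini-Hochberg adjustment and a threshold of 0.05. The step was tested on simulated data with log2 fold changes larger than those of the members. How well it finds changes of the members' size was not tested. Members and lists were chosen with earlier results of these data known. Named are all members, 2 genes of smallest p per pathway list and a fixed set. Equal replicate numbers were not read as pairs. Figures used matplotlib 3.10.9. One gene of the fixed set is not reported here.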

Additional observations from a re-analysis of the deposited data

How the results depend on the processing

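Over 15 alternatives (3 other scalings, a pseudocount of 0.1, no filter, a filter at 5 FPKM, variance without robust estimation, array quality weights, the replicate block and leaving out each of 6 libraries), 0 proteasome members and 0 genes of the pathway and marker lists were called, and the smallest adjusted p of a member was 0.239. The filter at 5 FPKM tested 20 members. Over all genes, 1 gene rather than 0 was called lower after scaling by the FPKM total or the nuclear total, quantile normalization and array weights. Leaving out single libraries gave 1 to 2 higher genes (2 without 2×Trp replicate 3). The count at an unadjusted p under 0.05 went from 345 to 560 without a filter, 204 at 5 FPKM and 1789 with array weights, and to between 248 and 1412 (without High-Low replicate 2) when 1 library was left out. Of the members, 3 reached that level with array weights (PSME2, PSMC3 and PSMD1), and 0 to 3 when 1 library was left out.

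Medians of the roles stayed within the spread between replicates, except the regulatory median without 2×Trp replicate 1 (-0.14). Within that spread, the regulatory median reached 0.034 under quantile normalization and up to 0.025 when 1 library was left out. The core median turned to 0.067 with the filter at 5 FPKM. Of 24 members 10 kept their direction throughout: PSMA5, PSMB7, PSMC3, PSMC5, PSMD1, PSMD3, PSMD4, PSME1, PSME2 and PSME4. Directions turned, all without a call, under quantile normalization for PSMB1 (0.013), PSMD13 (0.034) and PSMD6 (0.020). With nuclear scaling PSMD13 (0.029), PSMD14 (0.020), PSMD5 (0.033) and PSMD6 (0.0096) turned, and with array weights PSMD6 (0.013), PSME3 (0.045) and PSMG3 (-0.29). Leaving out 1 library turned 14 members, with ranges of -0.15 to 0.55 for PSMA1, -0.51 to 0.056 for PSMA3, -0.15 to 0.0064 for PSMB1, -0.031 to 0.091 for PSMC1, -0.058 to 0.14 for PSMC2, -0.27 to 0.58 for PSMC6, -0.010 to 0.29 for PSMD11, -0.030 to 0.35 for PSMD12, -0.078 to 0.025 for PSMD13, -0.27 to 0.21 for PSMD14, -0.33 to 0.21 for PSMD5, -0.28 to 0.20 for PSMD6, -0.32 to 0.10 for PSME3 and -0.24 to 0.34 for PSMG3. The cause was not tested.

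With the replicate block 1 gene was higher, 0 were lower and 304 reached an unadjusted p under 0.05. Deviations of libraries of equal number correlated at -0.216, -0.0113 and 0.0323, so the numbers were not read as pairs. The planned ratios of cutting subunits and their alternatives were not run because 3 of the genes were not matched to a row. Read depth is unknown, so no interval for counting error could be given for low values such as those of PSMB9.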
